A study of Mus musculus with 8 samples.

Results

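The genes described here are 8 precursor genes of neuropeptides with known expression in the cerebral cortex, Penk, Pdyn, Tac1, Tac2, Crh, Adcyap1, Cort and Nts, of the 54752 genes in the count tables. They were chosen by name and not by a threshold on a value. RNA-seq measured them in the right cerebral cortex of 4 Sham and 4 BCAS mice, 1 mouse per library, 3 weeks after surgery. The mice were adult male wild-type C57BL/6 mice in both groups. BCAS stands for bilateral carotid artery stenosis, in which each common carotid artery is narrowed by a wire coil wound around it, and the right artery, on the side that was sequenced, carried the narrower coil. Sham mice had the same operation without coils. Each library is a piece of whole cortex with neurons, glia, vessels and blood cells, so fewer cells of a type and less RNA per cell cannot be told apart. The comparison asks how the cortical transcriptome differed under chronic cerebral hypoperfusion.

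A neuropeptide is cut from a larger precursor protein inside dense-core granules, released on strong firing and read by G protein-coupled receptors on nearby cells. Cortical GABAergic interneurons are usually typed by the peptides they make, and glutamatergic neurons make some as well. Enkephalin, dynorphin and substance P are also the classical peptides of the projection neurons of the striatum, which lies directly beneath the cortex. Penk gives the enkephalins and Pdyn the dynorphins, which act on opioid receptors. Tac1 gives substance P and neurokinin A, and Tac2 gives neurokinin B, all ligands of the tachykinin receptors. Crh encodes corticotropin-releasing hormone, Adcyap1 encodes PACAP, which raises cyclic AMP in its target cells, Cort encodes cortistatin, a relative of somatostatin, and Nts encodes neurotensin.

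The libraries held between 16759364 and 21794435 counts, and 17136 genes passed the filter on low counts, all 8 neuropeptide genes among them. Markers of glutamatergic cortical neurons, such as Slc17a7, summed to 5450 to 6477 CPM (counts scaled to the same library total) in Sham mice. In BCAS mice they were lower, at 2176 to 4856 CPM. Hypothalamic markers summed to at most 9.43 CPM. Markers of striatal projection neurons summed to 337 to 576 CPM in Sham and 424 to 914 CPM in BCAS mice. Sham mouse 3 stood apart in choroid plexus markers, with 773 CPM against 14.8 to 50.1 CPM in the other Sham mice and 32.7 to 70.3 CPM in BCAS mice.

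Several of these genes are known to be induced through cyclic AMP and the factor CREB, which binds the cyclic AMP response element TGACGTCA and its short core TGACG. The promoter windows below, 250 bases ahead of a transcription start, are shown because they hold that core. RefSeq windows were matched for 6 of the 8 genes, on the build GRCm38.p6. Capitals mark TGACG or, on the other strand, CGTCA.
Adcyap1 (chr17:93198767-93199016, plus strand): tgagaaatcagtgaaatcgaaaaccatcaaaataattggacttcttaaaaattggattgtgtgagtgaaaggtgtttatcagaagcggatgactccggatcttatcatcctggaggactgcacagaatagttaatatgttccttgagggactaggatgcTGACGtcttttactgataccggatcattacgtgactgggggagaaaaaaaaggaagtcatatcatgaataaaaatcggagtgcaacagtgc
Cort (chr4:149126764-149127013, minus strand): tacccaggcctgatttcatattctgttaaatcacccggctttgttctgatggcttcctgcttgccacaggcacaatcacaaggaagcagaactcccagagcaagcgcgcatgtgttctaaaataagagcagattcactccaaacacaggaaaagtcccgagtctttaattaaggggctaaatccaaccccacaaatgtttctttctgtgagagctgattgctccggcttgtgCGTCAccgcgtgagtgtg
Tac1 (chr6:7554811-7555060, plus strand): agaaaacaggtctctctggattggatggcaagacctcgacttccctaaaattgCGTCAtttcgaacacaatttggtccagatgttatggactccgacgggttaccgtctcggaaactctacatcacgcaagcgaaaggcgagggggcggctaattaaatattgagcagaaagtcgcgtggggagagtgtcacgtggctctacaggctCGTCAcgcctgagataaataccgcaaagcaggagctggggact
Nts (chr10:102490419-102490668, minus strand): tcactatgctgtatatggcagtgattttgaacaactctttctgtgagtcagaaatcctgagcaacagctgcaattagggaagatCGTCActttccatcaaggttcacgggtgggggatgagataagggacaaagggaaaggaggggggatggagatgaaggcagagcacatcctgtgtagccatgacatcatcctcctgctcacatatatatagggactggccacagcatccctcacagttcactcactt
The core was present in these 4 of the 6 genes, at 2 places in Tac1, and absent from the windows of Pdyn and Tac2. None of the 6 held the complete element TGACGTCA. Over 32851 RefSeq promoter windows of the same length, 17.8% held the core and 1.55% the complete element, both strands counted. A match describes the letters of the window and not binding. Adcyap1 and Cort were lower in BCAS mice, whereas Tac1 and Nts did not pass the test, so the core was found both in genes called lower and in genes not called.

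In BCAS mice 3 of the 8 genes, Adcyap1, Cort and Crh, were lower, and no gene of the 8 was called higher, although both counts changed when the libraries were scaled to neuronal genes, as given below. Adcyap1 and Cort were at 46.6% and 47.7% of the mean of Sham mice, and Crh at 64.5%. The 4 opioid and tachykinin precursors and Nts did not pass the test, and their groups overlapped. The test was the quasi-likelihood test of edgeR with Benjamini-Hochberg adjustment over all tested genes, and a gene was called at an adjusted p under 0.05. By that rule 32.0% of all tested genes were called, 12.8% lower and 19.2% higher. The lower genes made up 40.1% of the called genes, against 24.5% with the library size alone as normalization, 1.96% when scaled to GABAergic neuron genes and 0.29% when scaled to pan-neuronal genes. With an absolute log2 fold change above 1 as well, the threshold of the study, Adcyap1 and Cort remained, against 1.28% of all tested genes called lower and 11.0% called higher. The groups did not overlap in CPM, with every BCAS mouse below every Sham mouse, for the same 3 genes, against 16.3% of all tested genes. At an unadjusted p under 0.05, edgeR found 0 of the 8 genes higher, and DESeq2, limma-voom and limma on log2(CPM + 1) found 1 each, which did not pass after adjustment with any of them.

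**Figure D1:**
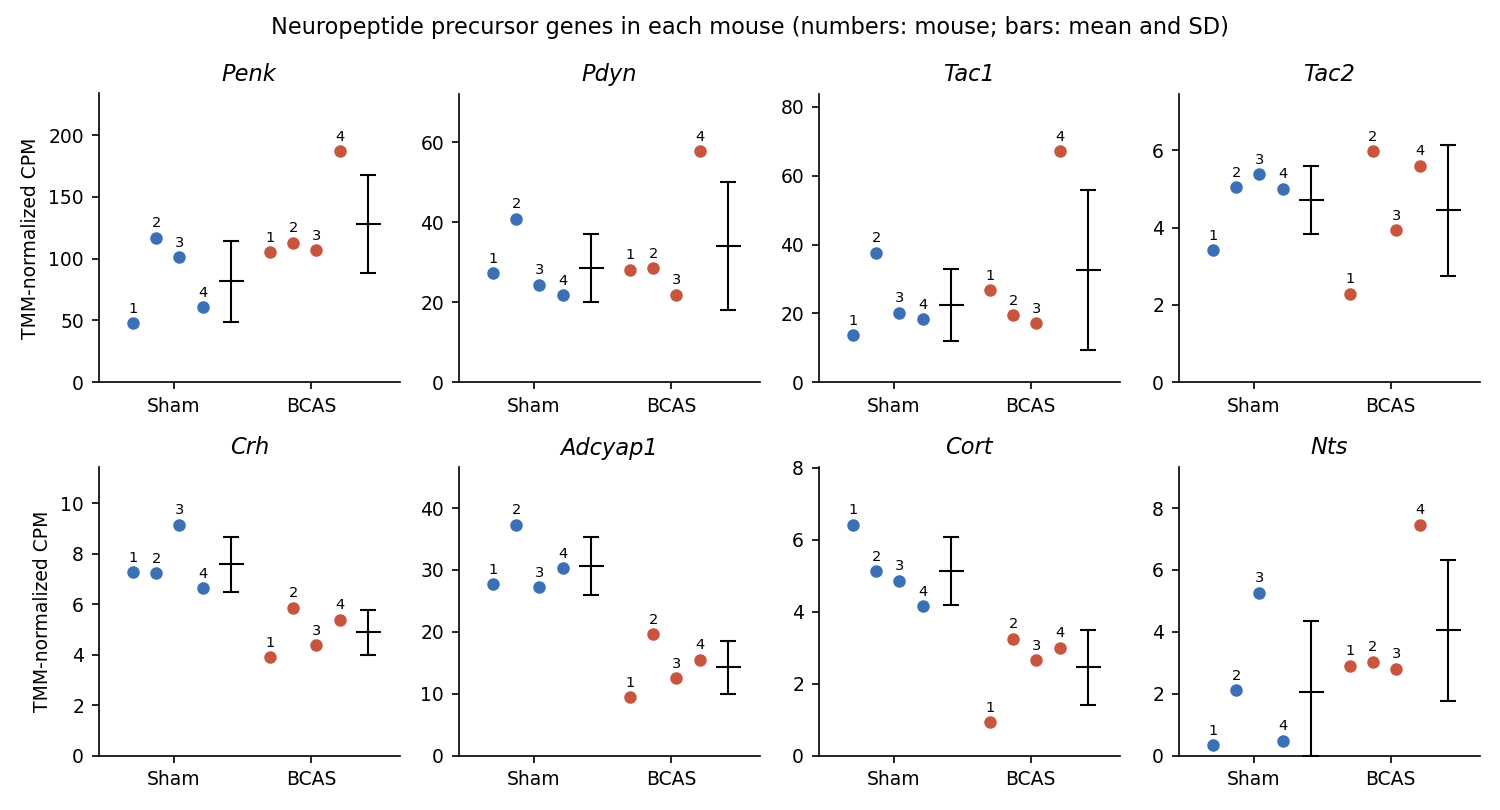
TMM-normalized CPM (vertical axes, from 0) of the 8 genes in each of the 4 Sham (blue) and 4 BCAS (red) mice, numbered by mouse, with the mean and SD of each group beside the points; the SD bar of Nts in Sham mice is drawn down to 0 only. The groups are apart for Crh, Adcyap1 and Cort and overlap for the other 5 genes, and BCAS mouse 4 is the highest library for Penk, Pdyn, Tac1 and Nts.

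Adcyap1 (ENSMUSG00000024256.7) lies on the plus strand at chr17:93199017-93206537 of mm10, and no other annotated gene shares its exon bases. Sham mice 1 to 4 had 27.7, 37.3, 27.2 and 30.3 CPM, and BCAS mice 1 to 4 had 9.45, 19.6, 12.5 and 15.5 CPM. The lowest Sham mouse was thus above the highest BCAS mouse, and BCAS mouse 1 was the lowest of all. The mean fell from 30.6 ± 4.66 to 14.3 ± 4.35 CPM (SD, n = 4 each), a log2 fold change of -1.10 (SE 0.21, adjusted p = 0.00815, edgeR with Benjamini-Hochberg adjustment). The call was made in all 8 fits that left out 1 library, with log2 fold changes from -1.28 to -0.94 and adjusted p-values of at most 0.0306. It did not pass with Sham mouse 2 and BCAS mouse 4 both left out (-1.04, adjusted p = 0.0656).

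Cort (ENSMUSG00000028971.4), on the minus strand at chr4:149125034-149126763, was measured from few counts, 69 to 113 in Sham and 21 to 63 in BCAS libraries. Sham mice had 6.42, 5.12, 4.86 and 4.16 CPM, and BCAS mice 0.923, 3.25, 2.65 and 3.00 CPM. BCAS mouse 1 was again the lowest library, well under the other BCAS mice, and the groups did not overlap. The means were 5.14 ± 0.944 and 2.45 ± 1.05 CPM (SD, n = 4), and the log2 fold change was -1.07 (SE 0.35, adjusted p = 0.0448 in edgeR). The call was kept in 2 of the 8 fits without 1 library, those without BCAS mouse 1 or 2, and the adjusted p rose to 0.115 without Sham mouse 1.

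Crh (ENSMUSG00000049796.4), on the minus strand at chr3:19693401-19695396, was at 7.27, 7.24, 9.15 and 6.64 CPM in Sham mice. In BCAS mice it was at 3.91, 5.87, 4.38 and 5.39 CPM. Every BCAS mouse was below every Sham mouse, and Sham mouse 3 was the highest. The means were 7.58 ± 1.09 and 4.89 ± 0.902 CPM (SD, n = 4), with a log2 fold change of -0.63 (SE 0.18, adjusted p = 0.0305 in edgeR), which turned to 0.19 when scaled to pan-neuronal genes. The call was kept in 1 of the 8 fits without 1 library, that without BCAS mouse 2, with log2 fold changes from -0.72 to -0.53 and adjusted p-values up to 0.0809, without BCAS mouse 3. For Crh, Adcyap1 and Cort alike the BCAS mice stood in the order 2, 4, 3, 1 from the highest to the lowest level.

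The opioid precursor Penk (ENSMUSG00000045573.9, minus strand, chr4:4133531-4138819) had 47.7, 117, 101 and 60.8 CPM in Sham mice and 105, 113, 107 and 187 CPM in BCAS mice. BCAS mouse 4 exceeded all other libraries, and BCAS mice 1 to 3 lay within the range of Sham mice. The log2 fold change was 0.65 (SE 0.30, adjusted p = 0.123 in edgeR) and 0.41 without BCAS mouse 4 (adjusted p = 0.312). The antisense gene A830012C17Rik covers 14.3% of the exon bases of Penk, and it had 0 to 3 counts per library, in counts made without regard to strand.

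Pdyn (ENSMUSG00000027400.11, minus strand, chr2:129686565-129699844) was at 27.2, 40.9, 24.4 and 21.7 CPM in Sham mice and at 28.1, 28.5, 21.9 and 57.8 CPM in BCAS mice. Only BCAS mouse 4 lay outside the range of Sham mice. The log2 fold change of 0.25 (SE 0.31, adjusted p = 0.548 in edgeR) was within its error and became -0.12 without BCAS mouse 4 (adjusted p = 0.706).

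Among the tachykinin precursors, Tac1 (ENSMUSG00000061762.12, plus strand, chr6:7554879-7565834) had 13.7, 37.6, 20.2 and 18.3 CPM in Sham mice and 26.8, 19.5, 17.1 and 67.1 CPM in BCAS mice. The highest values of each group came from Sham mouse 2 and BCAS mouse 4, as for Penk and Pdyn. The log2 fold change of Tac1 was 0.54 (SE 0.47, adjusted p = 0.392 in edgeR) and became -0.09 without BCAS mouse 4 (adjusted p = 0.861). Tac2 (ENSMUSG00000025400.11, plus strand, chr10:127724478-127731768) had 3.41, 5.05, 5.38 and 5.01 CPM in Sham and 2.29, 5.98, 3.94 and 5.61 CPM in BCAS mice. Here mouse 1 was the lowest of each group and the ranges overlapped. Tac2 had a log2 fold change of -0.08 (SE 0.30, adjusted p = 0.847 in edgeR).

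Nts (ENSMUSG00000019890.4, minus strand, chr10:102481756-102490486) varied most among Sham mice, at 0.341, 2.12, 5.26 and 0.483 CPM from 6 to 92 counts. BCAS mice had 2.90, 3.04, 2.81 and 7.46 CPM. Sham mouse 3, the library high in choroid plexus markers, lay above BCAS mice 1 to 3, and the other Sham mice lay below all BCAS mice. The log2 fold change was 0.97 (SE 0.75, adjusted p = 0.332 in edgeR) and 2.04 without Sham mouse 3 (adjusted p = 0.0615). It was 0.50 without BCAS mouse 4 (adjusted p = 0.659), 0.61 without Sham mouse 1 (adjusted p = 0.536) and 0.64 without Sham mouse 4 (adjusted p = 0.539). The part of choroid plexus tissue in these values was not tested.

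In TPM, which divide the counts by exon length and scale them to a common total, Penk was the most abundant of the 8 genes in both groups, at 211 ± 85.2 TPM in Sham and 329 ± 109 TPM in BCAS mice (SD, n = 4). In Sham mice Pdyn (41.6 ± 11.7 TPM), Adcyap1 (34.2 ± 4.73), Cort (32.0 ± 5.32), Tac1 (27.8 ± 12.6) and Crh (24.3 ± 4.11) followed, each overlapping its neighbour in range. Tac2 (14.5 ± 2.98 TPM) and Nts (7.06 ± 8.05) came last. In BCAS mice Adcyap1 (15.9 ± 5.33 TPM), Crh (15.6 ± 3.37) and Cort (15.3 ± 6.82) stood beside Nts (13.7 ± 7.97) and Tac2 (13.7 ± 5.55), below Pdyn (49.7 ± 24.4) and Tac1 (40.4 ± 29.7). Neighbours that did not overlap were Penk and Pdyn in both groups and Crh and Tac2 in Sham mice. In Sham mice 1.63% of all genes in the tables had a higher mean TPM than Penk and 22.1% a higher one than Nts.

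General neuronal markers were lower in BCAS mice as well. A list of 14 pan-neuronal genes, such as Rbfox3, Snap25 and Syt1, summed to 12444, 11860, 10988 and 11719 CPM in Sham mice 1 to 4 and to 4154, 9394, 7303 and 6759 CPM in BCAS mice 1 to 4. BCAS mouse 1 was the lowest and BCAS mouse 2 the highest of its group, as for Adcyap1, Cort and Crh. The order of the other libraries in this sum differed. BCAS mouse 4 was above BCAS mouse 3 in the 3 genes and below it in this sum. Sham mouse 3, the lowest Sham mouse in this sum, was the highest in Crh. The mean log2 level of the list, relative to Sham mice, was -0.64 in BCAS mouse 3 and -0.7 in BCAS mouse 4. Single markers did not all keep this order: Map2 was at 945 CPM in BCAS mouse 3, 1071 CPM in BCAS mouse 4 and highest in Sham mouse 3 (1545 CPM). Of these 14 genes 9 were called lower and none higher, with a median log2 fold change of -0.71, against -0.01 over all tested genes. Of 9 GABAergic neuron genes 3 were called lower, Gad1, Nxph1 and Erbb4, and the median was -0.52 (0.37 when scaled to pan-neuronal genes). Of 10 glutamatergic cortical neuron genes 5 were called lower and none higher, and the median was -0.85 (-0.12 when scaled to pan-neuronal genes). Markers of microglia and macrophages moved the other way, from 334 to 405 CPM in Sham mice to 5715, 1489, 2913 and 2982 CPM in BCAS mice, and all 8 of them were called higher. The part of a changed mix of cells in the lower levels of Adcyap1, Cort and Crh was not tested beyond the scalings below.

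With the libraries scaled to the pan-neuronal genes, the median log2 fold change of all tested genes was 0.88. On that scale Adcyap1 was at -0.32 (adjusted p = 0.197 in edgeR), Cort at -0.34 (adjusted p = 0.311) and Crh at 0.19 (adjusted p = 0.535), all 3 below that median and none past the test. Penk (1.50, adjusted p = 0.0101), Pdyn (1.14, adjusted p = 0.0243) and Tac1 (1.43, adjusted p = 0.0334) were called higher on that scale in edgeR, above the shifted median, in a fit that called 68.3% of all tested genes higher and 0.198% lower. Scaled to the GABAergic neuron genes, where the median of all tested genes was 0.39, Adcyap1 was still called lower (-0.73, adjusted p = 0.0198 in edgeR) and Penk was called higher (0.98, adjusted p = 0.012), against 0.584% of all tested genes called lower and 29.1% called higher. Cort (-0.72, adjusted p = 0.135) and Crh (-0.27, adjusted p = 0.456) were not called in that fit. The GABAergic list summed to 766, 919, 703 and 1067 CPM in BCAS mice 1 to 4, highest in mouse 4, the library highest in striatal markers. Among Sham mice it was highest in mouse 4 (1270 CPM) and not in mouse 2, the Sham mouse highest in striatal markers. The part of striatal tissue in this scale was not tested.

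**Figure D2:**
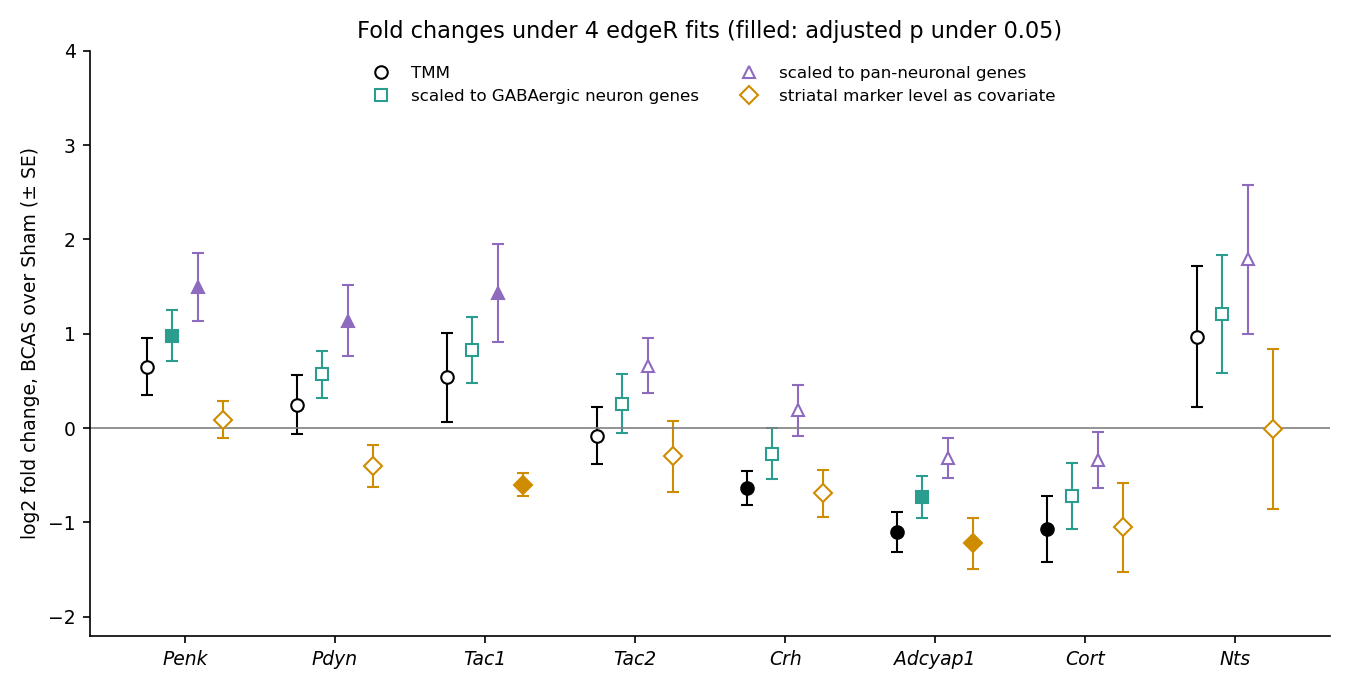
Log2 fold change of BCAS over Sham mice (vertical axis, points with SE) for the 8 genes in 4 edgeR fits, with filled symbols at an adjusted p under 0.05. Scaling to neuronal genes raised every value, and a striatal marker covariate lowered Penk from 0.65 to 0.09 and Tac1 from 0.54 to -0.60, while Adcyap1 was called in 3 of the 4 fits.

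Penk, Pdyn and Tac1 were highest, in each group, in the library that was highest in striatal neuron markers. The list of 10 striatal genes, such as Drd1, Drd2 and Ppp1r1b, summed to 337, 576, 386 and 370 CPM in Sham mice 1 to 4 and to 471, 429, 424 and 914 CPM in BCAS mice 1 to 4. Sham mouse 2 and BCAS mouse 4 were the highest of their groups, as they were for Penk, Pdyn and Tac1. Of the 10 genes 2 were called higher, Adora2a (0.99, adjusted p = 0.046 in edgeR) and Isl1 (2.01, adjusted p = 0.0469), none was at 0, and the median log2 fold change was 0.59. With the mean log2 CPM of this list as a covariate, the fold change of Penk was 0.09 (adjusted p = 0.791 in edgeR), that of Pdyn -0.40 (adjusted p = 0.246) and that of Nts -0.01 (adjusted p = 0.997). Tac1 was called lower in that fit, at -0.60 (SE 0.12, adjusted p = 0.0355 in edgeR), as were 0.175% of all tested genes, with 4.72% called higher. Adcyap1 was at -1.22 (adjusted p = 0.046), Cort at -1.05 (adjusted p = 0.186) and Crh at -0.69 (adjusted p = 0.129). This covariate was chosen after seeing the data, and the part of striatal tissue in the libraries was not tested directly. It was also tied to the group. Relative to the Sham mean it was at -0.58, 0.67, 0.04 and -0.13 in Sham mice 1 to 4. In BCAS mice 1 to 4 it was at 0.7, 0.41, 0.29 and 1.67. The fit therefore could not fully tell the group from the striatal marker level, for Tac1 as for the other genes.

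**Figure D3:**
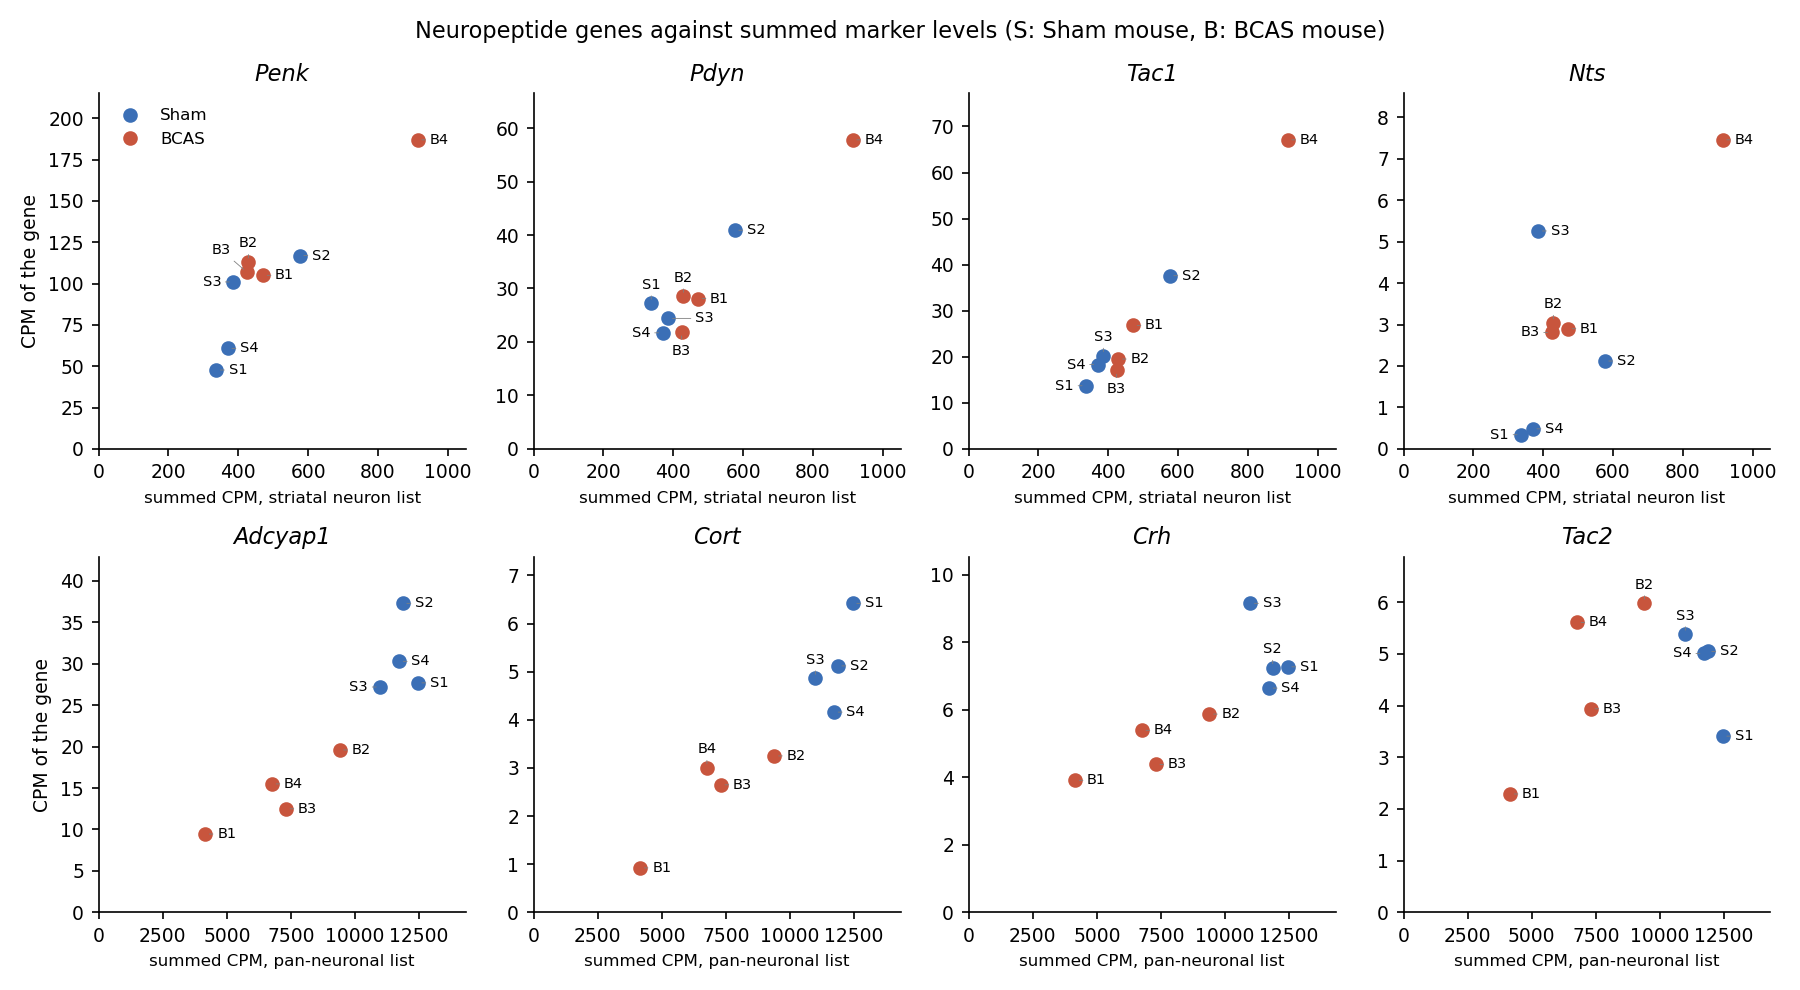
CPM of each gene (vertical axes) against the summed CPM of a marker list (horizontal axes) in each mouse, with striatal neuron markers in the upper row and pan-neuronal markers in the lower row. Sham mouse 2 (576 CPM) and BCAS mouse 4 (914 CPM) lie to the right for the striatal list and are high in Penk, Pdyn and Tac1, and BCAS mouse 1 (4154 CPM) is lowest on the pan-neuronal list and in Adcyap1, Cort, Crh and Tac2.

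For each neuropeptide gene, the genes with the most similar log2 CPM over the 8 libraries were taken among 10937 genes with a mean of at least 10 CPM, as a description only, since the libraries share the group difference, depth and tissue make-up. For Tac1 they were Gng7 (Pearson r = 0.979), Drd1 (0.965) and Sv2c (0.960), for Pdyn they were Pde10a (0.951), Abat (0.937) and Adcy5 (0.935), and for Penk they were Rxrg (0.959), Lrrc10b (0.946) and Heatr3 (0.936). Drd1 and Pde10a are on the striatal list. For Adcyap1 they included Igsf21 (0.991) and Gabarapl2 (0.989), for Cort Gpr26 (0.993), Cnnm2 (0.991) and Paip2b (0.991), and for Crh Ypel5 (0.984), Casd1 (0.979) and Trp53bp1 (0.976). With 1 library left out, the lowest r was 0.982 for Cort with Gpr26, without BCAS mouse 1, and 0.814 for Pdyn with Adcy5, without BCAS mouse 4. Tac2 was nearest to Mrps25 (0.958), Foxo6 (0.956) and Ets2 (0.952), and Nts to Prdm16 (0.960), Mettl16 (0.945) and Qpctl (0.943).

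Other cortical neuropeptide precursors were read beside the 8 genes from a list of 10, of which 9 passed the filter. Lower in BCAS mice were 3, Cck, Npy and Sst, and none was called higher, with a median log2 fold change of -0.66 (-0.01 when scaled to pan-neuronal genes). Cck, the precursor of cholecystokinin in cortical neurons of both main classes, had 340, 334, 223 and 332 CPM in Sham and 76.8, 191, 150 and 123 CPM in BCAS mice (log2 fold change -1.18, adjusted p = 0.0122 in edgeR). Npy, the precursor of neuropeptide Y, went from 52.3 ± 12.3 to 27.5 ± 6.22 CPM (SD, n = 4, log2 fold change -0.93, adjusted p = 0.0155 in edgeR). Sst, the somatostatin precursor to which Cort is related, went from 158 ± 9.81 to 88.2 ± 31.1 CPM (SD, n = 4, log2 fold change -0.84, adjusted p = 0.0279 in edgeR). All BCAS mice were below all Sham mice for each of the 3, and Sham mouse 3 was the lowest Sham mouse for Cck and Npy. Scaled to pan-neuronal genes, Cck was still called lower (-0.42, adjusted p = 0.0308 in edgeR), and Npy (-0.11, adjusted p = 0.654) and Sst (-0.09, adjusted p = 0.619) were not. Sst and Npy were also counted among the interneuron class markers, of which 4 of 8 were lower.

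Of 19 genes for receptors of these peptides 17 passed the filter, 5 were called lower and 1 higher, and the median log2 fold change was -0.24 (0.50 when scaled to pan-neuronal genes). Oprd1, the delta opioid receptor and a receptor of the enkephalins, was at 30.6, 28.4, 17.5 and 26.6 CPM in Sham and 11.2, 16.3, 12.4 and 15.5 CPM in BCAS mice. Every BCAS mouse was below every Sham mouse, by little between Sham mouse 3 and BCAS mouse 2. Oprd1 had a log2 fold change of -0.90 (SE 0.19, adjusted p = 0.0113 in edgeR), and of -0.05 when scaled to pan-neuronal genes (adjusted p = 0.855). The mu receptor Oprm1 was at 0.01 (adjusted p = 0.98), the kappa receptor Oprk1, the main receptor of dynorphin, at -0.24 (adjusted p = 0.639), and the nociceptin receptor Oprl1 at -0.54 (adjusted p = 0.094). Without 1 library Oprk1 ranged from -0.55 without BCAS mouse 4 to -0.00 without Sham mouse 2, never called. Oprl1 was called lower without BCAS mouse 1 (-0.32) or BCAS mouse 2 (-0.69), with a lowest adjusted p of 0.029 in edgeR.

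For the tachykinins, Tacr1, the receptor of substance P, was at 0.49 (adjusted p = 0.394 in edgeR) and Tacr3, the receptor of neurokinin B, at 0.76 (adjusted p = 0.288), and Tacr2 did not pass the filter. Scaled to pan-neuronal genes both were called higher, Tacr1 at 1.31 (adjusted p = 0.0339 in edgeR) and Tacr3 at 1.52 (adjusted p = 0.0305), where 68.3% of all tested genes were. Both were highest in BCAS mouse 4, at 11.3 and 6.54 CPM, the library that was also highest in Tac1, and without it they were at 0.05 and 0.34. Sham mouse 3 was the highest Sham mouse in Tacr3, at 4.46 CPM against 1.21 to 1.81 CPM, and without it Tacr1 was at 0.81 and Tacr3 at 1.37 (adjusted p = 0.0693 in edgeR). Of the neurotensin receptors Ntsr2, which is known mainly from astrocytes, rose from 117 ± 6.82 to 152 ± 20.2 CPM (SD, n = 4, log2 fold change 0.38, adjusted p = 0.0265 in edgeR), with every BCAS mouse above every Sham mouse. Ntsr1 did not pass the test, at -0.18 (SE 0.37, adjusted p = 0.722), and a difference between the receptors was not tested. Of 7 astrocyte markers 5 were called higher, with a median log2 fold change of 0.52.

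Of the receptors of PACAP, Adcyap1r1, its selective receptor, had 199, 221, 240 and 227 CPM in Sham and 204, 245, 200 and 272 CPM in BCAS mice, and the groups overlapped, at a log2 fold change of 0.06 (SE 0.12, adjusted p = 0.735 in edgeR). Vipr1, shared by PACAP and the vasoactive intestinal peptide, had 29.1, 30.0, 27.1 and 33.6 CPM in Sham and 12.5, 23.5, 21.9 and 16.3 CPM in BCAS mice. These groups did not overlap, and Vipr1 was lower (-0.69, SE 0.19, adjusted p = 0.0258 in edgeR), though at 0.10 when scaled to pan-neuronal genes. Vipr2 was at 0.07 (adjusted p = 0.956). Scaled to pan-neuronal genes Adcyap1r1 was called higher, at 0.92 (SE 0.22, adjusted p = 0.0098 in edgeR), near the median of 0.88 over all tested genes, and neither Adcyap1 nor Vipr1 was called. A difference between the receptors was not tested.

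Crhr1, the main cortical receptor of corticotropin-releasing hormone, had 31.9, 28.5, 23.2 and 29.7 CPM in Sham and 12.8, 23.4, 16.4 and 13.1 CPM in BCAS mice. Sham mouse 3 and BCAS mouse 2 overlapped by a small margin, and the other mice were apart. Crhr1 had a log2 fold change of -0.79 (SE 0.20, adjusted p = 0.0201 in edgeR), and of 0.02 when scaled to pan-neuronal genes. Crhr2 was at -0.06 (adjusted p = 0.948). Crhbp, which codes for the secreted protein that binds the hormone and is known from interneurons, was lower as well, from 23.3 ± 1.69 to 12.2 ± 5.76 CPM (SD, n = 4, log2 fold change -0.94, adjusted p = 0.041 in edgeR).

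Cortistatin acts on the somatostatin receptors, of which 4 passed the filter. Sstr3 had 28.5, 34.8, 29.2 and 36.1 CPM in Sham and 12.1, 20.2, 17.5 and 14.3 CPM in BCAS mice, without overlap (-1.0, SE 0.17, adjusted p = 0.00462 in edgeR). Scaled to pan-neuronal genes it was at -0.20 (adjusted p = 0.414). Sstr4 was lower too (-0.85, adjusted p = 0.0257). Sstr1 (-0.50, adjusted p = 0.199) and Sstr2 (-0.56, adjusted p = 0.366) did not pass the test, and Sstr2 ranged from 3.21 to 22.8 CPM among BCAS mice. Sstr1 was called lower without BCAS mouse 2 (-0.81, adjusted p = 0.0167) and was at -0.27 without BCAS mouse 1, and Sstr2 was at -0.89 and -0.22 without these mice and not called. Sort1, which codes for sortilin and binds neurotensin, was at -0.44 (adjusted p = 0.0472) and its relative Sorl1 at -0.50 (adjusted p = 0.0204), so all 3 genes of the binding and sorting list were called lower, while Sort1 and Sorl1 were both at 0.38 when scaled to pan-neuronal genes.

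The machinery that turns precursors into peptides was read from a list of 15 genes. Of these 15 genes for precursor processing and dense-core granules 8 were called lower, 1 higher and 6 not, where 12.8% of all tested genes were called lower. The median log2 fold change was -0.65 (0.14 when scaled to pan-neuronal genes). Cadps2, a factor that primes granules for release, had 153, 134, 115 and 133 CPM in Sham and 31.6, 94.5, 71.4 and 55.7 CPM in BCAS mice, without overlap (-1.08, SE 0.28, adjusted p = 0.0215 in edgeR). Also lower in edgeR were the granule protein gene Vgf (-0.91, adjusted p = 0.0182) and Scg5, which assists a precursor convertase (-0.88, adjusted p = 0.0217). Cadps was lower as well (-0.65, adjusted p = 0.0231 in edgeR, 0.14 when scaled to pan-neuronal genes). On the pan-neuronal scale Cadps2 was at -0.35, Vgf at -0.16 and Scg5 at -0.13. None of these genes was called in either neuronal scaling. Cpd, a carboxypeptidase made by many cell types, was the 1 gene called higher (0.73, adjusted p = 0.00893). Of 10 peptide-degrading enzymes Anpep, aminopeptidase N, was called higher, at 6.25, 6.80, 5.78 and 6.88 CPM in Sham and 49.0, 8.55, 48.7 and 15.3 CPM in BCAS mice (2.24, adjusted p = 0.0149 in edgeR), and none was called lower. Anpep is also made by vessel-associated cells and macrophages, and BCAS mice 1 and 3 were also the highest in fibroblast and meningeal markers, at 1007 and 997 CPM against 130 to 163 CPM in Sham mice. They were also the highest in blood-borne leukocyte markers, at 88.6 and 59.4 CPM against 3.32 to 6.61 CPM in Sham mice. Microglia and macrophage markers were highest in BCAS mouse 1, at 5715 CPM, and nearly level in BCAS mice 3 and 4, at 2913 and 2982 CPM. The part of any of these cells in the level of Anpep was not tested.

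Genes of the CREB and cyclic AMP response were called in both directions, 4 higher and 3 lower of 15, with a median log2 fold change of -0.26 (0.53 when scaled to pan-neuronal genes and 0.09 to GABAergic neuron genes). Sham mouse 3, the library high in choroid plexus markers, stood apart in the sum of this list, at 1818 CPM against 812, 1086 and 1073 CPM in the other Sham mice and 649 to 1154 CPM in BCAS mice, and its part in the list's values was not tested. Npas4, a factor induced by neuronal activity, had 23.3, 41.4, 47.5 and 50.2 CPM in Sham and 4.40, 27.1, 11.1 and 11.7 CPM in BCAS mice (-1.58, adjusted p = 0.0336 in edgeR). Only BCAS mouse 2 was above a Sham mouse, the lowest. Bdnf, a neurotrophin gene under CREB control, was lower (-0.86, adjusted p = 0.043), as was the coactivator gene Crtc1 (-0.49, adjusted p = 0.0351), the main neuronal form, which was at 0.32 when scaled to pan-neuronal genes. The related coactivators Crtc2 (0.48, adjusted p = 0.00911) and Crtc3 (0.43, adjusted p = 0.0302) and the factor Atf1 (0.61, adjusted p = 0.0325) were higher. The stress-induced factor Atf3 rose from 0.799 ± 0.518 to 20.1 ± 14.0 CPM (SD, n = 4, log2 fold change 4.63, adjusted p = 0.00343 in edgeR), with BCAS mouse 1 at 38.1 CPM and BCAS mouse 2 at 4.89 CPM.

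**Figure D4:**
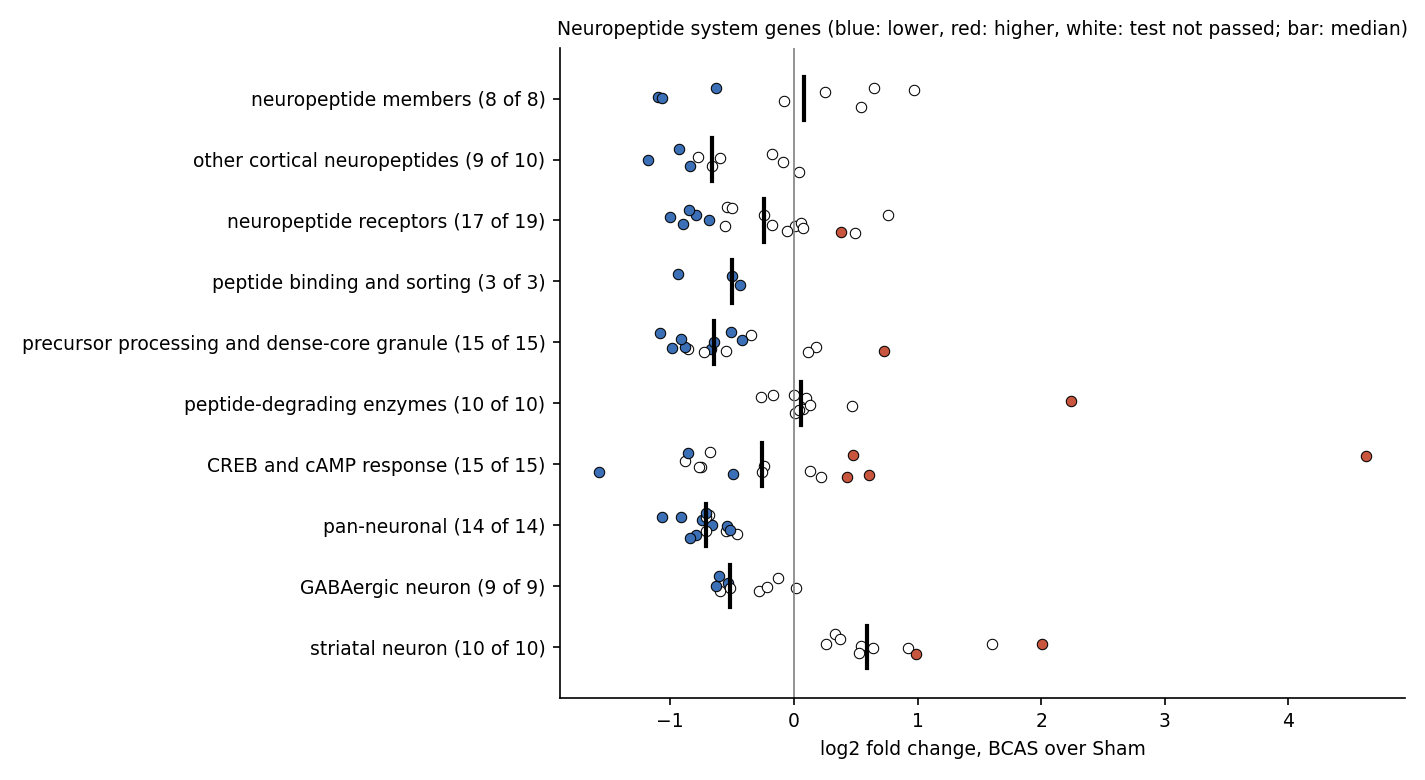
Log2 fold change of BCAS over Sham mice (horizontal axis) of the tested genes of each list, with the number tested and the size of the list in brackets; each point is a gene, blue if called lower, red if called higher and white if not called, and a bar marks the median. The medians lie at -0.66 for the other neuropeptides, -0.24 for receptors, -0.65 for processing genes, -0.71 for pan-neuronal and 0.59 for striatal markers.

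Of the 25 genes of the pathway lists that were named by the rule and called, 8 were called in all 8 fits without 1 library, namely Cck, Npy, Oprd1, Sstr3, Cpd, Anpep, Atf3 and Crtc2. The other 17, with adjusted p-values of up to 0.116, each lost the call in at least 1 of these fits. The 18 of the 25 that were lower depended on the scaling: 2 of them, Cck and Npas4, were still called lower when scaled to pan-neuronal genes, and the same 2 when scaled to GABAergic neuron genes. The 7 that were higher were called higher in both scalings.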

How the data were processed

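The data are RNA-seq counts from 4 Sham and 4 BCAS mice (right cerebral cortex). According to the labels and methods, the authors trimmed the reads, aligned them to mm10 with HISAT2 and sorted them with SAMtools 1.9. The authors then counted read pairs per gene and deposited these counts without normalization; the file headers name featureCounts 2.0.1, GENCODE vM20 and no strand option, whereas the labels name release 1.6.3. Symbols came from GENCODE vM21 for 54723 of the 54752 gene IDs, and positions from the exon columns of the files.

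Genes were tested with edgeR 4.0.16 in R 4.3.3: TMM normalization, filterByExpr (minimum count 10, minimum total 15), the quasi-likelihood F-test without covariates and Benjamini-Hochberg adjustment over 17136 genes. CPM are TMM-normalized, log2 CPM used a prior count of 2, and TPM used the exon lengths in the files. The SE of a log2 fold change was derived from its F-statistic. The fits were tested on simulated data. The alternatives replaced the normalization, the filter or the test (DESeq2 1.42.0, limma 3.58.1), scaled to neuronal genes, thinned counts, used the replicate number as a block or left out each library. The pair of libraries left out together and the striatal covariate were chosen after seeing the data.

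The 8 genes, the marker and pathway lists and the tests were chosen with earlier results of these data known. Genes named are the 8 genes, the receptors and binding proteins of their peptides, up to 4 genes per pathway list and direction with the smallest p among those called, and the 3 nearest genes by correlation, of which 1 is not reported here. Marker genes and the antisense gene of Penk were named in addition. Promoter windows are those of RefSeq. The p-values measure the spread between mice, 1 library each. Plots were made in Python 3.11.15 (matplotlib 3.10.9).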

Additional observations from a re-analysis of the deposited data

Results flagged for a closer look

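In groups of 4 mice, a library was singled out where its gap to the nearest other library, divided by the range of the group, exceeded the 95% critical value of Dixon's test. This was applied to 88 groups, 2 for each of 44 named genes, and chance alone singles out about 1 in 20 groups; 7 were found. Penk was at 187 CPM in BCAS mouse 4, against 105 to 113 CPM in the other BCAS mice. Nts was at 7.46 CPM in the same mouse, against 2.81 to 3.04 CPM. BCAS mouse 4 was also the highest library in striatal markers (914 CPM). With these markers as a covariate, chosen after seeing the data, the log2 fold change was 0.09 for Penk and -0.01 for Nts. The part of striatal tissue in both values was not tested directly.

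Sham mouse 3, the library with 773 CPM of choroid plexus markers, was low in Cck (223 CPM against 332 to 340 CPM in the other Sham mice), in Npy (34.0 against 56.4 to 60.7 CPM) and in Sorl1 (374 against 504 to 520 CPM). The same mouse was high in Crhr2, at 3.49 CPM against 0.724 to 1.19 CPM. Vipr2 was at 8.62 CPM in BCAS mouse 1, against 1.13 to 1.62 CPM in the other BCAS mice. A Sham mouse, mouse 4, was also high in Vipr2, at 6.82 CPM against 0.341 to 3.49 CPM in the other Sham mice, though not singled out by this rule.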

How the results depend on the processing

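Adcyap1 kept its direction in all alternatives and its call in 21 of 23; Crh kept its call in 10 and Cort in 11. The number of the 8 genes called lower, 3, fell to 1 with the library size alone and when scaled to GABAergic genes, and to 0 when scaled to pan-neuronal genes or without Sham mouse 2 and BCAS mouse 4. It ranged from 1 to 3 without 1 library. Past the fold threshold, 2 became 1 with the library size alone, with limma on log2(CPM + 1) and with the striatal covariate, 0 with either neuronal scaling and without Sham mouse 2 and BCAS mouse 4, and 0 to 2 without 1 library. Called higher were 3 genes when scaled to pan-neuronal genes, all 3 past the fold threshold, and 1 when scaled to GABAergic genes. Over all tested genes 5490 calls became 11744 when scaled to pan-neuronal genes, 955 without Sham mouse 2 and BCAS mouse 4, and 838 with the covariate, and with the fold threshold 6765, 901 and 790. Without 1 library, 2549 to 8166 genes were called, with 2549 without Sham mouse 1, 2723 without Sham mouse 2, 2731 without Sham mouse 4, 2974 without BCAS mouse 3 and 3198 without BCAS mouse 4. Of the called genes 40.1% were lower in the comparison as reported, 24.5% with the library size alone, 1.96% when scaled to GABAergic genes and 0.29% when scaled to pan-neuronal genes. Why these counts and shares changed was not tested. Fits that left out libraries also had fewer of them, and the highest count, 8166, was found without BCAS mouse 2.

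With the replicate number as a block, 3546 genes were called, and of the 8 genes 1 was lower (Adcyap1, -1.14, adjusted p = 0.00807 in edgeR), which also passed the fold threshold; Crh (-0.64, adjusted p = 0.0691) and Cort (-1.15, adjusted p = 0.0869) were not called. The numbers did not pair the mice: the correlations of same-numbered libraries' deviations from their group means were -0.045, -0.103, -0.008 and 0.001, and no Sham library correlated best with its own number.

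Signs turned for the following log2 fold changes. Scaled to pan-neuronal genes, Tac2 was at 0.66, Crh at 0.19, Oprk1 at 0.59, Oprl1 at 0.22, Crhr1 at 0.02, Crhr2 at 0.65, Vipr1 at 0.10, Sstr1 at 0.21, Sstr2 at 0.08, Ntsr1 at 0.50, Sort1 at 0.38 and then called higher, Sorl1 at 0.38, Cadps at 0.14 and Crtc1 at 0.32. Scaled to GABAergic genes, Tac2 was at 0.26, Oprk1 at 0.06, Crhr2 at 0.21 and Ntsr1 at 0.16. With the striatal covariate, Pdyn was at -0.40, Tac1 at -0.60, Nts at -0.01, Oprm1 at -0.07, Tacr1 at -0.32, Adcyap1r1 at -0.10 and Vipr2 at -0.11. Without 1 library, values ranged from -0.12 to 0.47 for Pdyn, -0.09 to 0.89 for Tac1, -0.25 to 0.15 for Tac2, -0.35 to 0.74 for Crhr2, -1.18 to 0.83 for Vipr2 and -0.48 to 0.10 for Ntsr1, with lowest values of -0.19 for Oprm1 and -0.03 for Adcyap1r1; Oprm1 was also at -0.08 and -0.01, Vipr2 at -0.32 and -0.17, and Crhr2 at 0.17 and 0.10. Crhr2 was at 0.02 with the library size alone, 0.09 with limma-voom, 0.04 with limma on log2(CPM + 1) and 0.12 with the replicate block, which put Vipr2 at -0.22. Oprm1 was at -0.00 with the upper quartile, and Adcyap1r1 at -0.04 without Sham mouse 2 and BCAS mouse 4. Nts could not be tested with at least 10 counts required in every library.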
